A study of Mus musculus with 18 samples.

Results

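The genes described here encode the transferases of phase II metabolism in mouse liver: the UDP-glucuronosyltransferases (Ugt), the cytosolic sulfotransferases (Sult) and the cytosolic and mitochondrial glutathione S-transferases (Gst). They were chosen by a name rule, with earlier results of these data known. Every symbol that starts with Ugt1, Ugt2, Ugt3, Sult or Gst followed by a class letter and a number was taken. The probe set had to be annotated with exactly 1 symbol. This gave 43 genes of the 18193 with a probe set: 10 Ugt, 13 Sult and 20 Gst genes. Where a gene had several probe sets, the one with the highest mean signal over the 18 arrays was used. Of the 43 genes, 34 passed the filter on low signal and were tested, among 13221 genes tested in all: 10 Ugt, 6 Sult and 18 Gst genes.

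Phase II enzymes attach a polar group to a substrate so that it can leave the cell in bile or blood. Ugt enzymes of the endoplasmic reticulum transfer glucuronic acid from UDP-glucuronic acid to steroids, bilirubin and drugs, Sult enzymes of the cytosol transfer sulfate from the donor PAPS to phenols, thyroid hormone, steroids and bile acids, and Gst enzymes join glutathione to electrophiles such as lipid peroxidation products. In mouse liver several of these genes are known to differ between the sexes, and several Gst genes are known targets of the antioxidant regulator Nrf2.

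Liver RNA of wild-type CD1 mice, an outbred strain, was measured on Affymetrix mouse genome arrays. The prevention model gave vehicle or 6 mg/kg per day of CMPF, a furan fatty acid metabolite found in blood, over 1 week, followed by a high-fat diet (HFD, 60% of kcal as fat) for 4 weeks according to the sample labels, or for up to 5 weeks according to the series text. The reversal model put this diet first, for 6 weeks, and the vehicle or CMPF injections after it, for 2 weeks. Both models comprise chow, HFD and HFD with CMPF, each on 3 arrays; the chow and HFD groups were the controls without CMPF. It is not stated in the labels if different animals gave the 3 arrays of a group, so each p measures the spread between arrays, which may be technical.

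All values are log2 signals, and the levels of the models are not compared, because the array means were 5.08 to 5.10 in the prevention model and 5.25 to 5.26 in the reversal model. Prevention CMPF 2 and CMPF 3 were almost the same measurement: 0 genes differed over 2-fold between them, whereas every one of the remaining 152 array pairs had 115 or more such genes. They were averaged, which leaves n = 2 there. The array of reversal chow 2 stood apart, with a median correlation of 0.948 with the other arrays of its model. The 3' to 5' index averages the 3' minus 5' signal of the Gapdh and beta-actin control probe sets and increases as RNA gets shorter. Prevention chow had an index of 1.43 ± 0.512 (SD, n = 3), compared with 2.84 ± 0.303 (n = 3) in prevention HFD and 2.95 ± 0.285 (n = 2) in prevention CMPF. In the reversal model it was 3.15 ± 0.566 in chow, 2.62 ± 0.969 in HFD and 2.63 ± 0.957 in CMPF (n = 3 each), with low values on HFD 1 (1.55) and CMPF 3 (1.66). The hepatocyte markers Alb, Ttr, Apoa1 and Tat gave a summed level of 15.8 to 16.2 on all arrays, while 1 of 4 bile duct markers (Krt7), 1 of 2 fat cell markers (Lep) and 1 of 2 kidney markers (Umod) were below the signal cutoff of 4.01 on all arrays. The summed levels of these lists were 6.47 to 7.18 for bile duct, 4.08 to 5.11 for fat and 4.12 to 4.51 for kidney. The summed level of the pancreas markers Cela1, Cpa1 and Ins2 ranged from 9.27 to 10.99 in prevention chow and from 8.81 to 9.54 in prevention HFD, and from 7.34 to 9.38 in reversal chow and from 9.99 to 10.40 in reversal HFD. The red cell marker with a probe set, Alas2, was at 7.74 to 7.98 in prevention chow and 8.13 to 8.43 in HFD, and at 8.46 to 8.85 in reversal chow and 9.05 to 9.93 in HFD. The summed level of 4 Kupffer cell and monocyte markers was 9.87 to 10.32 in reversal chow and 10.58 to 10.74 in HFD, and overlapped between prevention chow and HFD. Of 3 tested endothelial markers, 1 rose on HFD in the prevention model (limma adjusted p = 0.049), where 1.74% of all genes rose. All 3 were lower on HFD in the reversal model, by -0.43 to -0.27, and none passed. The HFD effect in the reversal minus the prevention model was negative and passed for 1 of 3 endothelial and 1 of 3 bile duct markers. Their limma adjusted p was 0.0244 each, and 2.15% of all genes passed as negative. The part of these markers in the results below was not tested.

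Among the 43 genes, none of the Ugt1 family had a probe set with 1 symbol: 3 probe sets list 8 Ugt1a genes each, so Ugt1a1, the bilirubin transferase, has no value of its own. Sult2a1 and Gstp2 likewise had none. The 9 genes below the cutoff were Gsto2, Gstt4, Sult1c1, Sult1e1, Sult2a2, Sult2b1, Sult3a1, Sult4a1 and Sult6b1, with no value above 4.49 on any array. For the estrogen sulfotransferase Sult1e1, the values ran from 2.73 to 3.72, with the highest on reversal CMPF 1. The female-predominant hydroxysteroid sulfotransferase Sult2a2 lay between 2.63 and 3.26 and the female-predominant Sult3a1 between 2.62 and 3.15. Both female-predominant genes with a probe set were thus below the cutoff on all arrays. Of the 34 tested genes, 4 are read by probe sets named _s_at or _x_at, which can hybridise with related transcripts: Gstm1, Gstm3, Gsto1 and Ugt2b34.

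HFD was first compared with chow in the prevention model. Of the 34 genes, 2 fell (Ugt2b38 and Ugt2b1) and 2 rose (Gstm3 and Gstm4), each 5.88% of the genes tested here, against 3.83% of all 13221 genes with a negative and 1.74% with a positive change past limma's adjusted p of 0.05. All 10 Ugt genes were lower on HFD, with a median log2 difference of -0.60, against 0.0016 over all genes tested. With 2 of 10 past the threshold, the other 8 are given as values only. Ugt2b36 was almost unchanged (-0.0048), and with the 3' to 5' index as a covariate it turned to 0.17. The other Ugt genes stayed lower in that fit, from -3.32 (Ugt2b38) to -0.02 (Ugt2b35).

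The Ugt2 genes lie in a row on chromosome 5, and their promoters are poor in G and C: the 300-base windows of RefSeq (build GRCm38.p6, 250 bases before to 50 after the start) held 31.7% to 43.3% G and C in the 9 Ugt genes with an entry, against a median of 52.7% over 32851 promoters. The order of the starts along the chromosome is Ugt2b34, Ugt2b1, Ugt2b35, Ugt2b36, Ugt2b5, Ugt2b37, Ugt2a3 and Ugt2b38, followed by the sulfotransferases Sult1b1, Sult1d1 and Sult1e1. The promoters of the 2 genes that fell are shown because both passed in this comparison. Ugt2b38 is at chr5:87424154-87424453 and Ugt2b1 at chr5:86926454-86926753, both on the minus strand. Each is printed 5' to 3' along the gene, in lower case, with capitals kept for matches to 3 motifs searched on both strands, of which these windows held none: the antioxidant response element core TGACNNNGC (12.4% of all promoters), the STAT5 core TTCNNNGAA (8.3%) and the HNF1 half-site GTTAAT (7.1%).
Ugt2b38: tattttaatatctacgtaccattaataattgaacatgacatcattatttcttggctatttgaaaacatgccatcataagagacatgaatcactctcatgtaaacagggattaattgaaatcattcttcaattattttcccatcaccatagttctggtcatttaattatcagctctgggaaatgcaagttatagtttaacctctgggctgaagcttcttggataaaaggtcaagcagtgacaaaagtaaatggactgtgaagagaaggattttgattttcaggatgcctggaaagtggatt
Ugt2b1: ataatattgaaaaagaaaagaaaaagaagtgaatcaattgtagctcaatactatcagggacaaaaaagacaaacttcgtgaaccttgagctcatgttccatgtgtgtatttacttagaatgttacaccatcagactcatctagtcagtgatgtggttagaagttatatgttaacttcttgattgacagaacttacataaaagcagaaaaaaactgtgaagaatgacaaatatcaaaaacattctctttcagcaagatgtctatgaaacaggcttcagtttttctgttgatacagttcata

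Ugt2b38 encodes a glucuronosyltransferase that is male-predominant in mouse liver. Its signal was 7.28, 8.29 and 8.38 in prevention chow and 4.92, 5.22 and 4.92 in HFD, while CMPF 1 was at 7.07 and the mean of CMPF 2 and 3 at 6.46. All 3 HFD arrays lay more than 2 log2 units below the lowest chow array, and both CMPF samples lay between the groups. It fell by 2.97 ± 0.432 (SE, 7.81-fold, limma adjusted p = 0.00931) on HFD. In this bulk tissue, fewer cells of a type and less RNA per cell cannot be told apart.

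In the reversal model Ugt2b38 was 8.38, 8.34 and 7.90 in chow, 5.23, 7.12 and 7.16 in HFD, and 6.20, 5.97 and 6.66 with CMPF. The chow arrays were again all above the HFD arrays, but HFD 1 was far below HFD 2 and 3. The difference of -1.70 ± 0.432 had a limma adjusted p of 0.0539.

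Ugt2b1, a transferase of steroids and xenobiotics that is also male-predominant, read 12.68, 12.46 and 12.69 in prevention chow, 11.20, 11.69 and 12.01 in HFD, and 12.33 and 12.64 in the CMPF samples. The HFD arrays did not overlap with chow or with CMPF. It fell by 0.97 ± 0.202 (1.96-fold, limma adjusted p = 0.0215). In the reversal model it read 12.87, 12.81 and 12.87 in chow against 11.88, 12.53 and 12.63 in HFD, a difference of -0.50 ± 0.202 (adjusted p = 0.171). Gstp1, the other male-predominant gene with a probe set, differed by -0.33 ± 0.106 (adjusted p = 0.0822) in the prevention model and by -0.21 ± 0.106 (adjusted p = 0.259) in the reversal model, with no overlap between chow and HFD in either.

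The other Ugt2 genes differed by -0.76 (Ugt2b37) to -0.0048 (Ugt2b36) in the prevention model, with adjusted p from 0.115 to 0.987. The HFD arrays of Ugt2b37 were at 3.84 to 3.98, below the signal cutoff of 4.01, so differences against them are of low signal. Ugt3a1 and Ugt3a2, members of a family whose human counterparts use sugars other than glucuronic acid, came close to the threshold. For Ugt3a2, prevention chow read 11.98, 11.42 and 11.95 and HFD 10.49, 10.73 and 10.47, a difference of -1.22 ± 0.340 (adjusted p = 0.0512). Ugt3a1 read 10.48, 9.99 and 10.58 against 8.86, 9.73 and 9.23, a difference of -1.08 ± 0.313 (adjusted p = 0.0584). In both genes every HFD array was below every chow array. With the 3' to 5' index as a covariate, these differences were -0.39 and -0.38, while that of Ugt2b38 was -3.32 (adjusted p = 0.045).

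**Figure D1:**
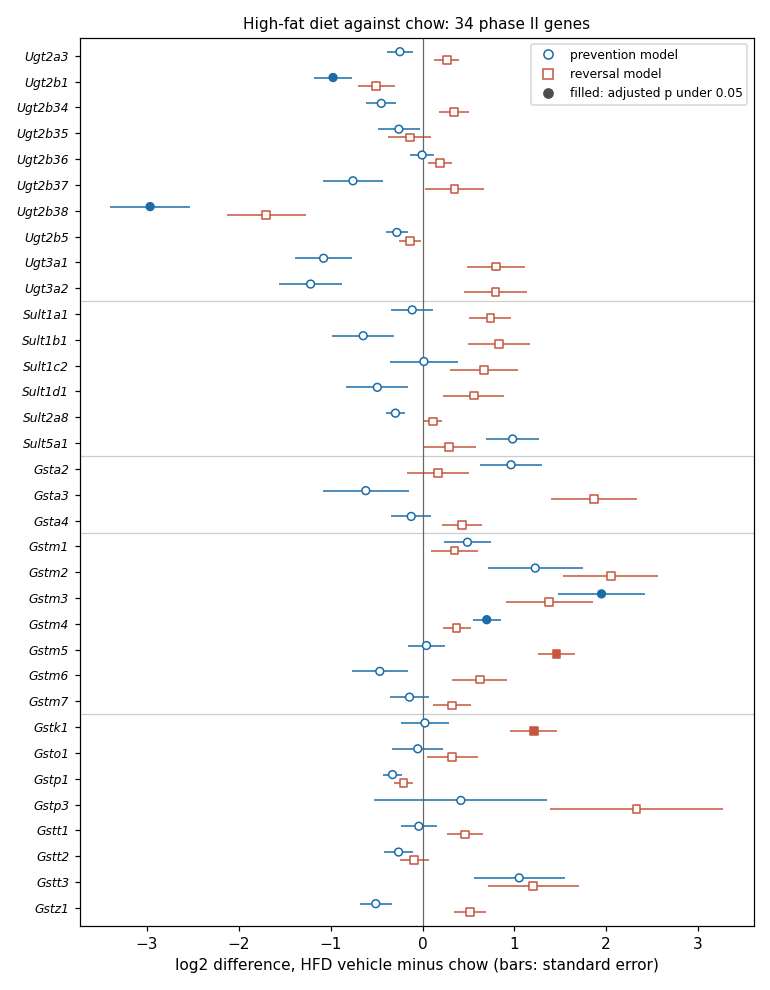
Log2 difference between the HFD vehicle and chow groups for the 34 tested genes (x axis, with standard errors as bars), in the prevention model (circles) and the reversal model (squares); filled symbols have a limma adjusted p under 0.05. By the chosen probe sets, all 10 Ugt genes lie left of 0 in the prevention model, from -0.0048 for Ugt2b36 down to -2.97 for Ugt2b38. In the reversal model all 7 Gstm and all 6 Sult genes lie right of 0 by these probe sets.

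The 2 genes that rose in the prevention model belong to the mu class of glutathione transferases, whose 7 genes lie together on chromosome 3. Of the 7 Gstm genes, 2 rose, 0 fell and 5 did not pass, with a median of 0.49. Gstm3 read 6.21, 6.25 and 6.56 in prevention chow and 8.83, 9.24 and 6.80 in HFD. Its HFD values were spread, with HFD 3 only just above the highest chow array. It rose by 1.95 ± 0.472 (3.86-fold, limma adjusted p = 0.0324). This value comes from a probe set named _s_at; the gene's other probe set, with a mean of 4.34, differed by 0.25, and with plain probe sets only the adjusted p was 0.363.

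Gstm4 read 8.14, 8.28 and 7.94 in prevention chow, 9.01, 8.94 and 8.50 in HFD, and 8.67 and 8.98 in the CMPF samples. All HFD and CMPF samples were above all chow arrays. It rose by 0.70 ± 0.152 (1.62-fold, limma adjusted p = 0.0244). Gstm2 read 6.06, 6.25 and 6.34 against 7.77, 7.74 and 6.82, a difference of 1.23 ± 0.518 (adjusted p = 0.162). Gstm1 differed by 0.49, Gstm5 by 0.04, Gstm7 by -0.14 and Gstm6 by -0.47, with adjusted p from 0.254 to 0.921.

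The promoters of the mu class genes that passed a test in either model are shown because the genes come from 1 cluster: Gstm3 at chr3:107969125-107969424 and Gstm4 at chr3:108044810-108045109, both on the minus strand, passed in the prevention model, and Gstm5 at chr3:107895604-107895903, on the plus strand, in the reversal model. The HFD effects of the models differed past the threshold for Gstm5 (1.42, adjusted p = 0.0191) and not for Gstm3 (-0.57, limma adjusted p = 0.591) or Gstm4 (-0.33, adjusted p = 0.313). The order of the starts is Gstm5, Gstm7, Gstm6, Gstm3, Gstm2, Gstm1 and Gstm4. The windows of the 7 genes held 50% to 57.7% G and C. Capitals mark the match to the antioxidant response element core in Gstm5, from base -42 to base -34 counted from the start, and neither of the other windows held a match to the 3 motifs. Gstm4 had 2 promoter entries, and only the one shown was used for it.
Gstm3: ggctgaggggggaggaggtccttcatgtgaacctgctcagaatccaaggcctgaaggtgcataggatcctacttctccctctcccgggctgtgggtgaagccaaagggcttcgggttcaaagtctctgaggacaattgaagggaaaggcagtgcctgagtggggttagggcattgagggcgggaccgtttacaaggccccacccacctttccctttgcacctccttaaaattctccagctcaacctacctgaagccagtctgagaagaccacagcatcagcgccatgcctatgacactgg
Gstm4: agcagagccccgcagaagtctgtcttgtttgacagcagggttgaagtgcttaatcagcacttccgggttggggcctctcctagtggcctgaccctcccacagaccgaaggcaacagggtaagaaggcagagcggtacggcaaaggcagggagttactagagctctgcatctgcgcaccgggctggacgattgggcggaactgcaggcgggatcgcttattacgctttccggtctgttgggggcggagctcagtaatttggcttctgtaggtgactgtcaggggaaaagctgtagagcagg
Gstm5: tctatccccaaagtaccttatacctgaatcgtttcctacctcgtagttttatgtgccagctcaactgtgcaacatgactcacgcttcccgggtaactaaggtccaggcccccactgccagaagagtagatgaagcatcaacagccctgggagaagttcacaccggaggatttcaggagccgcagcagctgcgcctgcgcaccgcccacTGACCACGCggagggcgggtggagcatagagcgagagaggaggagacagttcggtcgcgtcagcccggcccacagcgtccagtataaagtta

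Among all 38 of the 43 genes with a promoter entry, the antioxidant response element core was found in 2 (Gstm5 and Gsta3), the STAT5 core in 1 (Sult3a1) and the HNF1 half-site in 5 (Gsta3, Sult1a1, Sult1d1, Ugt2a3 and Ugt3a1), that is 5.26%, 2.63% and 13.2%. These matches are letters in a window and not measured sites. They were counted in 1 entry per gene, whereas the shares over all promoters counted every entry.

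No other Gst gene and no Sult gene passed in the prevention model. Gsta2, an alpha class transferase, read 9.42, 8.82 and 8.66 in chow against 9.95, 9.91 and 9.93 in HFD, a difference of 0.96 ± 0.341 (adjusted p = 0.104). Gstz1, which also serves tyrosine breakdown as maleylacetoacetate isomerase, read 10.65, 10.51 and 10.94 against 10.27, 10.18 and 10.12, a difference of -0.51 ± 0.174 (adjusted p = 0.0946). Both were free of overlap between chow and HFD. Gstt3 of the theta class differed by 1.05 ± 0.497 (adjusted p = 0.206), and with the index as a covariate by 2.22 (adjusted p = 0.045). Gsta4, which conjugates the lipid peroxidation product hydroxynonenal, differed by -0.12, Gstk1 by 0.03 and Gsto1 by -0.05, with adjusted p of 0.771, 0.965 and 0.932. With the index as a covariate Gstz1 differed by -0.15, Gsta2 by 1.46, Gsta4 by 0.30, Gstk1 by 0.47 and Gsto1 by 0.13, and none of these passed.

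Of the sulfotransferases, Sult5a1 came closest in the prevention model, with 8.02, 8.10 and 7.68 in chow, 8.88, 8.89 and 8.98 in HFD, and 8.40 and 7.74 in the CMPF samples. Its HFD arrays were all above the chow arrays and the CMPF samples, and the difference from chow was 0.98 ± 0.290 (limma adjusted p = 0.0612). With the index as a covariate that difference was 0.47 (limma adjusted p = 0.568). Sult1b1, which sulfates thyroid hormone, differed by -0.65 (adjusted p = 0.252) and the phenol sulfotransferase Sult1a1 by -0.11 (adjusted p = 0.804). The bile acid sulfotransferase Sult2a8 differed by -0.295 ± 0.105 (adjusted p = 0.106).

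Single arrays decided the number of genes called in the prevention model. Instead of 4, 0 genes passed without chow 3, 1 (Ugt2b38) without chow 1, HFD 1 or HFD 2, and 7 without chow 2 or without reversal chow 2. The call of Ugt2b38 was lost without chow 3 (-2.77, adjusted p = 0.054), and those of Ugt2b1, Gstm3 and Gstm4 without chow 1, chow 3 or HFD 1. Ugt2b1 (adjusted p = 0.0523), Gstm3 (0.102) and Gstm4 (0.0712) also missed the threshold without HFD 2. Without both low-index arrays, chow 1 and 3, the differences were -3.27 for Ugt2b38, -0.83 for Ugt2b1, 2.04 for Gstm3 and 0.54 for Gstm4, and none of these passed. That fit has 1 chow array, which is assumed to vary like the other groups. With the index as a covariate, 2 of the 34 passed (Ugt2b38 and Gstt3), and 17 of all genes.

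The same comparison was made in the reversal model. Of the 34 genes, 2 rose (Gstm5 and Gstk1), or 5.88%, against 2.17% of all genes, and 0 fell, against 0.28% of all genes. Of the 34, 28 were higher on HFD, and the median was 0.40, against 0.03 over all genes tested. At an unadjusted p under 0.05 stood 16 of the 34 (47.1%), against 22.4% of all genes.

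Gstm5, a mu class transferase, read 7.06, 6.34 and 6.86 in reversal chow, 8.34, 8.15 and 8.14 in HFD, and 7.61, 7.50 and 7.93 with CMPF. The 3 groups did not overlap, with the CMPF arrays in between. It rose by 1.46 ± 0.200 (2.75-fold, limma adjusted p = 0.00425) on HFD, and passed in all 16 alternatives run, with a range of 1.25 to 1.61. In the prevention model its chow arrays read 7.54, 7.38 and 7.63 and its HFD arrays 7.80, 7.75 and 7.12.

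Gstk1, the kappa class transferase of mitochondria and peroxisomes, read 9.96, 9.17 and 10.07 in reversal chow, 11.49, 10.55 and 10.79 in HFD, and 10.92, 10.55 and 10.67 with CMPF. All HFD and CMPF arrays were above all chow arrays. It rose by 1.21 ± 0.258 (2.31-fold, limma adjusted p = 0.0278) on HFD. Its promoter at chr6:42245685-42245984, on the plus strand, is shown as that of the only gene outside the mu class that rose in either model, and held none of the 3 motifs and 55.3% G and C.
Gstk1: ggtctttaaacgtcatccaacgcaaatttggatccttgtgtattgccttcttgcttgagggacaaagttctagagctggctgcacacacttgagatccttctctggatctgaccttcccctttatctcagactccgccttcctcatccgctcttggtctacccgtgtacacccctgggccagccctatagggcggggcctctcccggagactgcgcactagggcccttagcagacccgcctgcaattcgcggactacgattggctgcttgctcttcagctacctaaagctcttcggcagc

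The other 6 Gstm genes were also higher on HFD in the reversal model and did not pass, so that all 7 were positive by their chosen probe sets, with a median of 0.62. Another probe set differed by -0.13 for Gstm7 (chosen 0.32) and by -0.05 for Gstm1 (chosen 0.35). Gstm2 read 6.27, 4.31 and 6.39 in chow, 6.78, 7.55 and 8.79 in HFD and 7.15, 6.67 and 6.87 with CMPF. The low value on chow 2 and the high value on HFD 3 widened its spread, and the difference was 2.05 ± 0.518 (adjusted p = 0.0529). Gstm3 read 7.09, 6.93 and 6.53 against 8.61, 7.51 and 8.57, a difference of 1.38 ± 0.472 (adjusted p = 0.121) by the _s_at probe set and 0.29 by the other. Gstm4 differed by 0.37 ± 0.152 (adjusted p = 0.177).

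Gsta3, an alpha class transferase known in mice for its action on activated aflatoxin, read 9.39, 9.23 and 9.09 in reversal chow and 11.99, 10.14 and 11.20 in HFD. Its HFD arrays were all above the chow arrays, and the difference was 1.87 ± 0.468 (limma adjusted p = 0.0515). Its other probe set differed by 1.08 in the same direction. Gsta4 differed by 0.43 ± 0.219 (adjusted p = 0.253), Gsto1 by 0.32 ± 0.279 (adjusted p = 0.501), Gstt3 by 1.20 ± 0.497 (adjusted p = 0.179) and Gstz1 by 0.52 ± 0.174 (adjusted p = 0.115).

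All 6 tested Sult genes were higher on HFD in the reversal model by their chosen probe sets, with a median of 0.61, and none passed. The other probe set of Sult1d1 differed by -0.0060 (chosen 0.56). Sult1a1 read 11.11, 11.41 and 11.70 in chow and 12.53, 11.61 and 12.30 in HFD, a difference of 0.74 ± 0.229 (limma adjusted p = 0.0965), with HFD 2 below the highest chow array. Sult1b1 read 8.12, 7.52 and 7.94 against 9.13, 8.38 and 8.57, a difference of 0.83 ± 0.337 (adjusted p = 0.173) without overlap. Sult1c2 differed by 0.67, Sult1d1 by 0.56, Sult5a1 by 0.29 and Sult2a8 by 0.11, with adjusted p from 0.296 to 0.565.

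The Ugt genes were divided in the reversal model: 6 were higher and 4 lower on HFD, and none passed. The 4 lower ones were Ugt2b38, Ugt2b1, Ugt2b5 and Ugt2b35, of which the last pair differed by -0.14 each (adjusted p of 0.491 and 0.745). Ugt3a1 read 10.26, 9.47 and 9.86 in chow and 10.98, 10.26 and 10.75 in HFD, a difference of 0.80 ± 0.313 (adjusted p = 0.162). Ugt3a2 read 11.59, 10.42 and 10.83 against 12.07, 11.27 and 11.88, a difference of 0.80 ± 0.340 (adjusted p = 0.193). In both genes the lowest HFD array did not exceed the highest chow array.

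Left out in turn, reversal chow 2, HFD 1 and HFD 3 each cost Gstk1 its call, with differences of 0.93 (adjusted p = 0.083), 0.94 (0.108) and 1.29 (0.0546). The number of genes called was then 1 without chow 2 or HFD 3 and 2 without HFD 1 (Gstm5 and Gstm2), and it was 4 without HFD 2. With the arrays of the reversal model alone in the fit, 1 gene (Gstm5) passed.

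**Figure D2:**
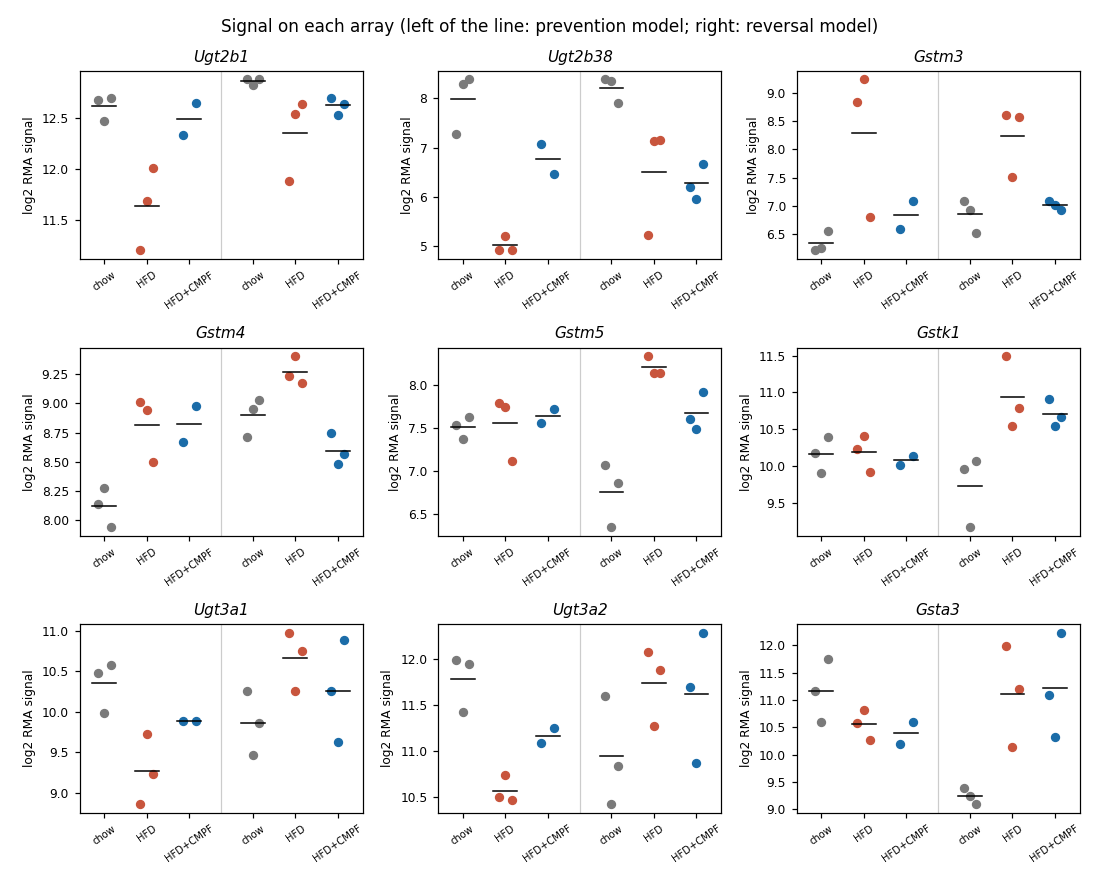
Log2 signal of 9 genes on each array (y axis; the range differs between panels), by group (x axis), with group means as lines: the 6 genes that passed in either model for HFD against chow, and Ugt3a1, Ugt3a2 and Gsta3. The HFD arrays of Ugt2b38 lie at 4.92 to 5.22 in the prevention model, below all chow arrays, and those of Gstm5 lie at 8.14 to 8.34 in the reversal model, above all chow and CMPF arrays.

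The difference between the HFD effects of the models was tested in the same fit. It was positive and past limma's adjusted p of 0.05 for 6 of the 34 genes (17.6%), against 8.84% of all genes, and negative for 0, against 2.15%. The 6 were Gstm5 (1.42), Ugt3a1 (1.88), Gstz1 (1.03), Ugt3a2 (2.01), Gsta3 (2.49) and Ugt2b34 (0.80). All 10 Ugt genes had a positive difference, with a median of 0.65, against 0.03 over all genes.

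The 6 genes differed in what made up the difference. The value of Gstm5 came from the reversal model (1.46 ± 0.200), with 0.04 ± 0.200 in the prevention model. Ugt3a1, Ugt3a2, Gstz1 and Ugt2b34 were lower on HFD in the prevention model and higher in the reversal model, without passing in either. Ugt2b34, a glucuronosyltransferase read by an _s_at probe set, differed by -0.45 and 0.35, and its plain probe set by -1.14 and 0.77. Gsta3 differed by -0.62 and 1.87 by its chosen probe set, but by 0.94 and 1.08 by its other, so its direction in the prevention model depended on the probe set, and with the index as a covariate the chosen one gave 0.62.

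The 3' to 5' index moved with these values: the prevention chow arrays with the lowest index, chow 3 (0.968) and chow 1 (1.33), carried the highest chow values of Ugt3a1, Ugt3a2, Gsta3, Gstz1 and Ugt2b34, and reversal HFD 1 (1.55) the highest HFD values of Ugt3a1, Ugt3a2, Gsta3, Gstm5 and Gstz1. With the index as a covariate the differences were 0.94 for Gstm5, 0.92 for Ugt3a1, 0.54 for Gstz1, 0.87 for Ugt3a2, 0.78 for Gsta3 and 0.47 for Ugt2b34, and 0 of the 34 and 0 of all genes passed. Left out singly, prevention chow 1 or chow 3 left 0 genes, prevention HFD 3 or reversal chow 2 left Gstm5 alone, reversal HFD 1 left 1 other gene (Ugt2b37), and prevention chow 2 left 10. The index itself differed between chow and HFD of the prevention model, so its part and that of the diet cannot be told apart there.

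CMPF was compared with vehicle on HFD; this comparison shares the HFD arrays with that of HFD and chow, so the effects of the comparisons are given side by side and not correlated. In the prevention model 0 of the 34 genes passed limma's threshold, as did 0 of all genes (0%). At an unadjusted p under 0.05 stood 9 of the 34 (26.5%) and 1060 of all genes (8.02%). All 10 Ugt genes were higher with CMPF, with a median of 0.61, against 0.02 over all genes.

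Ugt2b1 was higher by 0.85 ± 0.226 and Ugt2b38 by 1.75 ± 0.483 with CMPF in the prevention model (limma adjusted p = 0.359 each), where HFD against chow gave -0.97 and -2.97. Both CMPF samples lay above all 3 HFD arrays for both genes. Gstm3 was lower by 1.45 on the log2 scale (-1.45 ± 0.528, adjusted p = 0.509), with CMPF samples at 6.59 and 7.09, on either side of HFD 3 at 6.80. That value is from its _s_at probe set, and the other differed by -0.26. Sult5a1 differed by -0.85 ± 0.324 (adjusted p = 0.551), Gstp1 by 0.32 ± 0.119 (adjusted p = 0.527), Gstt1 by -0.33 ± 0.220 (adjusted p = 0.781), Gsta2 by -0.67 ± 0.382 (adjusted p = 0.721) and Sult1a1 by -0.55 ± 0.256 (adjusted p = 0.623). The 95% intervals for Ugt2b1, from 0.36 to 1.33, and for Ugt2b38, from 0.71 to 2.78, left out 0 before adjustment over all genes. Gstk1, Gsta4, Gsto1, Gstz1 and Sult1b1 differed by -0.11, 0.08, 0.32, -0.08 and -0.05, with adjusted p of 0.856 or above.

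In the reversal model 0 of the 34 genes passed, against 5 (0.0378%) of all genes. At an unadjusted p under 0.05 stood 6 of the 34 (17.6%) and 634 of all genes (4.8%). All 7 Gstm genes were lower with CMPF, with a median of -0.53, against -0.0093 over all genes. Gstm4 read 9.23, 9.40 and 9.18 in HFD and 8.74, 8.48 and 8.57 with CMPF. These groups did not overlap, and the difference was -0.68 ± 0.152 (limma adjusted p = 0.248), where HFD against chow gave 0.37. Gstm3 differed by -1.22 ± 0.472 (adjusted p = 0.905) and Gstm5 by -0.53 ± 0.200 (adjusted p = 0.866), both without overlap. For Gstm3 that is the _s_at probe set, and the other differed by -0.34.

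Gstt1, a theta class transferase, read 11.49, 11.74 and 11.41 in reversal HFD and 10.29, 10.86 and 11.34 with CMPF, a difference of -0.72 ± 0.197 (limma adjusted p = 0.467). Ugt2b37 read 4.75, 6.35 and 6.10 against 4.44, 4.58 and 5.15, a difference of -1.01 ± 0.323 (adjusted p = 0.656), with HFD 1 among the CMPF values. Without HFD 1, Ugt2b37 passed in this comparison, with a difference of -1.50 (adjusted p = 0.0314), and was the only one of the 34 to do so. Ugt2b38 differed by -0.23 ± 0.432, Ugt2b1 by 0.27 ± 0.202, Gstp1 by 0.28 ± 0.106, Gstk1 by -0.23 ± 0.258, Gsta4 by 0.05 ± 0.219 and Sult5a1 by 0.49 ± 0.290, with adjusted p of 0.894 or above. Sult1a1, Sult1b1, Gsto1 and Gstz1 differed by -0.08, -0.27, -0.32 and -0.05.

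The CMPF effects of the models did not differ past the threshold for any of the 34 genes, nor for any of all genes (0%); at an unadjusted p under 0.05 stood 5 of the 34 and 1048 of all genes. The smallest p were those of Ugt2b37 (-1.71 ± 0.484, limma adjusted p = 0.487; its prevention HFD arrays were below the cutoff), Sult5a1 (1.34 ± 0.435, adjusted p = 0.507) and Ugt2b38 (-1.97 ± 0.647, adjusted p = 0.507). All 10 Ugt genes had a negative difference, with a median of -0.57, against -0.03 over all genes.

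**Figure D3:**
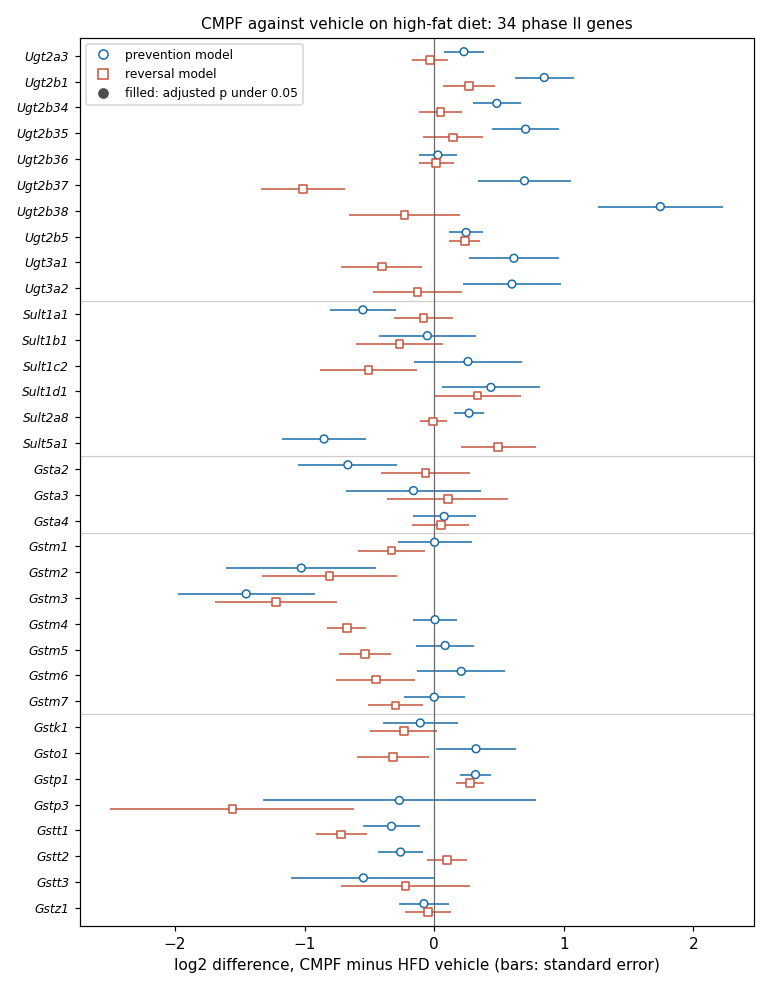
Log2 difference between the CMPF and HFD vehicle groups for the 34 tested genes (x axis, with standard errors as bars), in the prevention model (circles) and the reversal model (squares). No symbol is filled because no gene had a limma adjusted p under 0.05; all 10 Ugt genes lie right of 0 in the prevention model and all 7 Gstm genes left of 0 in the reversal model.

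The genes that feed, accompany and regulate these enzymes were described from lists, to be read against the 3.83% of all genes that fell and 1.74% that rose on HFD in the prevention model. There, of 7 tested genes of glutathione supply, 1 fell on HFD: Cth, the cystathionine gamma-lyase that makes cysteine, differed by -0.89 ± 0.210 (limma adjusted p = 0.03). Of 13 other conjugating enzymes, the arsenic methyltransferase As3mt fell (-0.85 ± 0.204, adjusted p = 0.0316). Of 6 genes of conjugate export and hydrolysis, Abcc3, which exports glucuronides to blood, rose (0.63 ± 0.168, adjusted p = 0.0452). None of 5 genes listed under UDP-glucuronic acid supply, 7 of PAPS supply or 10 regulators passed. Their smallest limma adjusted p were 0.0633 (Slc35b1), 0.0788 (Bpnt1) and 0.081 (Rxra). Slc35b1 is counted as listed, and its part in UDP-glucuronic acid supply was not tested.

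Of the 7 genes of PAPS supply, 3 rose on HFD in the reversal model, where 2.17% of all genes did. Papss1, which makes the sulfate donor PAPS, read 6.65, 6.37 and 6.83 in chow and 7.66, 7.60 and 7.41 in HFD. The groups did not overlap, and it rose by 0.94 ± 0.135 (limma adjusted p = 0.00485). Papss2, its partner, rose by 0.64 ± 0.140 (adjusted p = 0.0306), and Bpnt1, which breaks down the spent donor, by 1.10 ± 0.216 (adjusted p = 0.0206). The microsomal glutathione transferase Mgst3 rose by 1.45 ± 0.310 (adjusted p = 0.0278) and the glucuronidase Gusb by 0.89 ± 0.193 (adjusted p = 0.0306). The chow arrays read 8.91, 8.01 and 9.07 for Bpnt1 and 7.01, 6.35 and 6.68 for Gusb. Both were lowest on chow 2, the array that stood apart. No fit with an array left out is given here for the genes of these lists. None of the genes of UDP-glucuronic acid supply (smallest adjusted p 0.0539, Ugdh), glutathione supply (0.106, Gss) or the regulators (0.238, Rxra) passed.

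The difference of the HFD effects passed for 5 of the 7 PAPS genes (Papss1, Papss2, Slc26a1, Bpnt1 and Suox, from 0.66 to 2.00). It also passed for 2 of 5 genes listed under UDP-glucuronic acid supply (Pgm1 and Slc35b1), and for Gsr, Gusb and Rxra. All of these were positive, against 8.84% of all genes. With the index as a covariate, 0 of all genes passed this comparison. With CMPF no gene of these lists passed in either model. The smallest p were those of Papss1 in the prevention model (0.74 ± 0.151, limma adjusted p = 0.252), with 7.51 and 7.52 in the CMPF samples against 6.94, 6.71 and 6.67 in HFD, and of Nr1i2, the xenobiotic receptor PXR, in the reversal model (0.79 ± 0.167, adjusted p = 0.172).

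**Figure D4:**
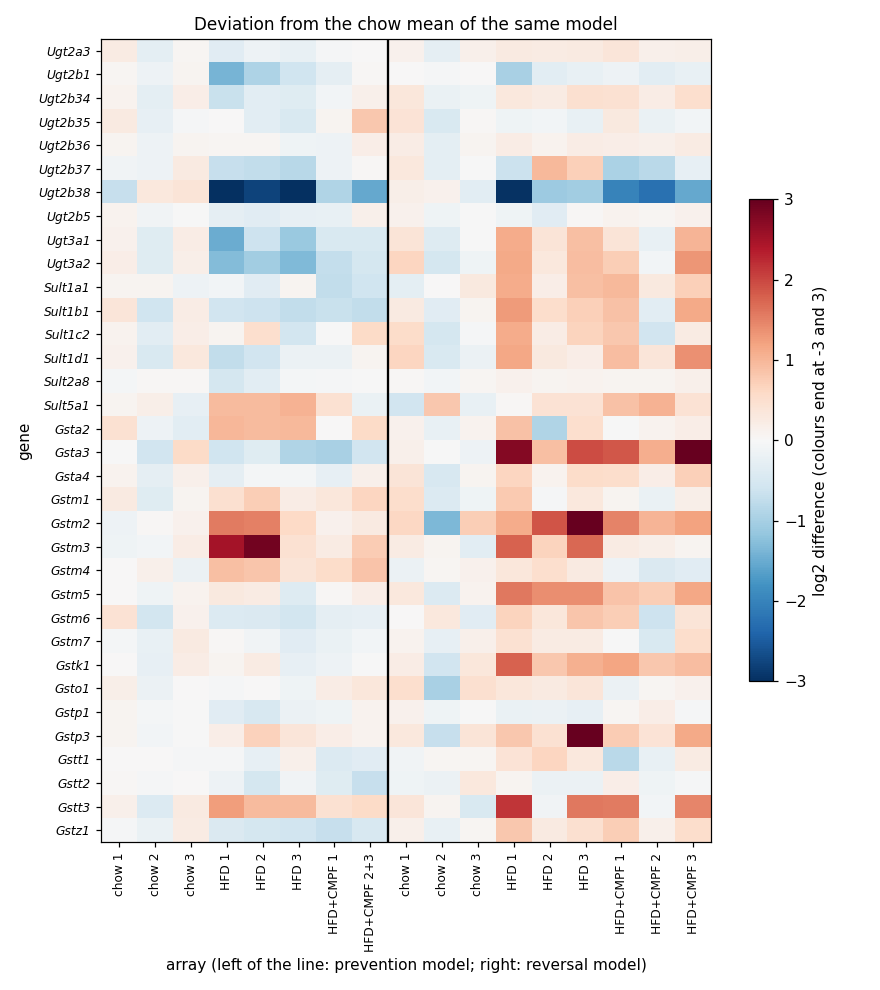
Signal of the 34 tested genes (y axis) on each array (x axis; the nearly identical prevention CMPF arrays 2 and 3 as their mean) as the log2 deviation from the chow mean of the same model; colours end at -3 and 3, and 4 values lie beyond. Ugt2b38 is low on the HFD arrays of both models, and Gstm5, Gstk1 and Gsta3 are high on the reversal HFD arrays; the highest value, 5.73, is Gstp3 on reversal HFD 3.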

How the data were processed

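Liver RNA was measured on 18 arrays, 3 in each of 6 groups, and samples were grouped by the labels. The deposited log2 values come from RMA in Affymetrix Expression Console 1.1, per the submitters' processing notes, and the sources used here do not state which arrays shared a run. Of 45101 probe sets, the 40% with the lowest mean were dropped (cutoff 4.01), and each gene was read from its probe set of 1 symbol with the highest mean; 932 probe sets with several symbols were not named. Differences were tested in limma 3.58.1 (R 4.3.3) by 1 fit of 6 group means on 17 samples, with Benjamini-Hochberg adjustment over 13221 genes and a threshold of 0.05; the pipeline was tested on simulated data. The genes and lists were chosen with earlier results of these data known. Named genes were those passing any comparison, the smallest p of each enzyme family and comparison, the 3 smallest p where fewer than 3 passed, a fixed set known for substrate or sex bias, and, of the other pathway lists, each gene passing or otherwise the smallest p. Gstm1, Gstm2, Gstm6, Gstm7, Gstp3, Sult1c2, Sult1d1, Sult2a8, Ugt2b5, Ugt2b35 and Ugt2b36 were named beyond that rule after their values were seen. Alternatives changed the filter, normalisation, probe set choice, samples and covariates. Arrays give no depth; their number limits the precision. All 43 symbols matched a current gene, and RefSeq promoters were found for 38; Gsta4, Gstt2, Sult2a2, Sult4a1 and Ugt3a2 had no entry used here.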

Additional observations from a re-analysis of the deposited data

Results flagged for a closer look

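The effect of HFD differed between the reversal and the prevention model, by limma's test of the difference itself, for 6 genes. The differences, reversal minus prevention on the log2 scale, were 2.49 ± 0.661 (SE) for Gsta3 (adjusted p = 0.0335), 1.42 ± 0.282 for Gstm5 (0.0191), 1.03 ± 0.246 for Gstz1 (0.0265), 0.80 ± 0.233 for Ugt2b34 (0.0439), 1.88 ± 0.442 for Ugt3a1 (0.0264) and 2.01 ± 0.481 for Ugt3a2 (0.0265). The effect was 0.52 in the reversal and -0.51 in the prevention model for Gstz1, and 0.80 and -1.08 for Ugt3a1. For Gsta3 it was 1.87 and -0.62 by the chosen probe set, but 1.08 and 0.94 by the other. With the mean of the probe sets of a gene, Gsta3 did not pass. None of the 6 passed with the 3' to 5' index as a covariate. Without prevention chow 1 or chow 3, 0 of the 6 passed, and without prevention HFD 3 or reversal chow 2 only Gstm5 did.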

How the results depend on the processing

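Of 36 results for single genes, 35 kept their direction under all alternatives run for them. The other, Gsta4 with CMPF in the reversal model, turned to -0.11 without HFD 2 and -0.07 without CMPF 3. Its range was -0.11 to 0.19 with 1 array left out, without passing. The 36 were chosen for passing or for the smallest p, so this does not extend to other genes. Outside them, some HFD differences in the prevention model turned with the index as a covariate, and others did not. Gsta3 went from -0.62 to 0.62, Sult1b1 from -0.65 to 0.14 and Sult1d1 from -0.49 to 0.28. Smaller differences that turned were those of Gsta4 (-0.12 to 0.30), Gstm7 (-0.14 to 0.30), Gsto1 (-0.05 to 0.13), Sult1a1 (-0.11 to 0.08) and Ugt2b36 (-0.0048 to 0.17). For HFD in the prevention model, 4 genes passed in the fit reported; 7 passed with all 18 arrays counted, 10 with the arrays of 1 model only, 2 with the index as a covariate and 0 to 7 with 1 array left out. For HFD in the reversal model, 2 became 5 with all 18 arrays, 1 with the arrays of 1 model, and 1 to 4 with 1 array left out. For the difference of the HFD effects, 6 became 3 with quantile normalisation, 0 with the index and 0 to 10 with 1 array left out. CMPF in the reversal model gave 0 to 1 with 1 array left out. Leaving out the low-index arrays was chosen after seeing the data: without prevention chow 1 and 3, HFD in the prevention model gave 0 and the difference of HFD effects 0, with 1 chow array in that fit; without reversal HFD 1 and CMPF 3, the counts were 7 for HFD in the prevention model, 1 for HFD in the reversal model, 1 for CMPF in the reversal model, 3 for the difference of HFD effects and 1 for the difference of CMPF effects. Replicate numbers were not used to pair the arrays in the fit reported. Deviations of same-numbered arrays correlated from -0.368 to 0.442, over 0.1 in 6 of 18 pairs. Arrays of different numbers were not compared in this way, so these values cannot decide if some numbers share a run. The replicate block with all 18 arrays gave 8 for HFD in the prevention and 5 in the reversal model. All 10 Ugt genes were negative for HFD in the prevention model in the fit reported, and 9 with quantile normalisation, with the index or without chow 1, chow 3 or HFD 3. Over all genes, HFD in the prevention model gave 737 calls and 17 with the index, and CMPF in the prevention model 0 and 36 with all 18 arrays; the causes were not tested, and 3 arrays per group limit the precision. Differences between models could not be fitted with the arrays of 1 model.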

Other observations

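Gstp3, a pi class glutathione transferase on chromosome 19 like Gstp1, was high on 1 array. It read 12.62 on reversal HFD 3 and between 6.19 and 8.03 on all others, and HFD against chow in the reversal model gave 2.33 ± 0.941 (SE, limma adjusted p = 0.173). Gstm2 was also highest on that array (8.79), whereas Gstp1 was at 13.58 there, against 13.61 and 13.63 on the other HFD arrays.

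The tested sulfotransferases beside the Ugt2 genes on chromosome 5 are Sult1b1 and Sult1d1, with Ugt2b38 the nearest Ugt2 gene here. On HFD in the prevention model Sult1b1 differed by -0.65 and Ugt2b38 by -2.97, and in the reversal model they differed by 0.83 and -1.70. With the 3' to 5' index as a covariate, they differed by 0.14 and -3.32 in the prevention model, and by 0.54 and -1.57 in the reversal model. The probe sets of Sult1d1 disagreed in both models, with -0.49 by the chosen one and 0.47 by the other in the prevention model, and 0.56 and -0.0060 in the reversal model. The genes were not tested against each other.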
